A study of Mus musculus with 16 samples.

Results

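Narrow H3K27me3 peaks found in activated muscle stem cells and overlapped by no narrow H3K27me3 peak of quiescent muscle stem cells are described here; they are called ASC-only peaks below. They were chosen by overlap alone, with 1 shared base pair enough to leave a peak out, and numbered 35284 of the 58454 narrow peaks of activated cells (60.4%). They covered 33.6 of 88.4 Mb, or 38.1% of the bases. A second list of the quiescent cells, of broad peaks, splits them further: 32092 (91.0%) were touched by a quiescent broad peak and 3192 (9.05%) were touched by none. The 3192 are the loci with no H3K27me3 call of either kind in quiescence, and are called untouched.

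The study mapped H3K27me3 and H3K4me3 by ChIPmentation, in which antibody-bound chromatin is tagged with sequencing adapters by a transposase, in skeletal muscle stem cells of C57BL/6 mice that were quiescent (QSC) or activated (ASC). There were 2 immunoprecipitated replicates per mark and state, with an input for each, 16 samples in all; all groups share the strain and the tissue. The values are peak lists, narrow and broad ones per mark and state, and each is named for both replicates of its group, so a group is represented by a single pooled list and no difference between states has a replicate check. The sources used here do not give how the cells were isolated or activated, the age of the mice or the number of animals behind a replicate. The QSC narrow list was shorter than the ASC list (44019 against 58454 H3K27me3 peaks), whereas the QSC broad list was longer (130668 against 95819), and read depth is unknown from these lists. As a check of the label, all 7 defining satellite cell markers (Pax7, Myf5, Myod1, Cdh15, Itga7, Vcam1 and Sdc4) had an H3K4me3 narrow peak at the gene start in both states. Of markers of other cells, none of 6 immune markers had such a peak in either state, while H3K4me3 was present at 1 of 6 endothelial markers in QSC (Kdr) and 2 in ASC (Kdr and Cldn5), at none and then 2 of 5 fibro-adipogenic markers (Pdgfra and Cd248 in ASC), at 2 and then 1 of 4 pericyte and smooth muscle markers, and at none and then 1 of 5 myofibre markers (Ttn). The part of other cell types in the results was not tested.

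H3K27me3, trimethylation of lysine 27 of histone H3, is deposited by Polycomb repressive complex 2 and marks genes that are kept silent, often in domains that span whole genes and their surroundings. H3K4me3 marks the starts of genes that are transcribed or poised, and is found mostly at CpG-rich starts. Some starts carry both marks, a state called bivalent in stem cells. Satellite cells, the stem cells of skeletal muscle, rest beneath the basal lamina of the fibre and enter the cell cycle after injury or in culture. In pooled lists from cell populations, overlap of the peaks of both marks does not show that they sit on the same chromosome copy.

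The start sequences below are shown because they carry the summit of an ASC-only peak, the base of highest signal, or because the locus recurs in the results. Each is the RefSeq sequence of GRCm38.p6 (the coordinates of mm10), 5′ to 3′ on the gene's strand, from 250 bases before to 50 bases after the annotated start, with CpG dinucleotides in capitals. CpG content is shown because H3K4me3 and H3K27me3 at gene starts both go with it. Of all ASC-only peaks, 118 had their summit in such a 300-base sequence, and 15 of these were untouched. With provisional symbols left aside, 4 untouched peaks that had no QSC broad peak within 5 kb placed a summit there, ordered by fold enrichment: Myh2, the heavy chain of fast oxidative fibres (chr11:67170777-67171076, plus strand; summit at base 109 of the sequence), Ppp1r27, a protein phosphatase regulatory subunit (chr11:120551083-120551382, minus strand; base 202), Htra3, a secreted serine protease (chr5:35679731-35680030, minus strand; base 55), and Crybg1 (chr10:44004797-44005096, minus strand; base 178).
Myh2: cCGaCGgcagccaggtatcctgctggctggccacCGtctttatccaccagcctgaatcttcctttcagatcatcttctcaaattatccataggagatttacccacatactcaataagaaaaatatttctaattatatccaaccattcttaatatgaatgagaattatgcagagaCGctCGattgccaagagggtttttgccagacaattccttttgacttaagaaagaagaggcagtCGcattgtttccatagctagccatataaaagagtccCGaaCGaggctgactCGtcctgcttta
Ppp1r27: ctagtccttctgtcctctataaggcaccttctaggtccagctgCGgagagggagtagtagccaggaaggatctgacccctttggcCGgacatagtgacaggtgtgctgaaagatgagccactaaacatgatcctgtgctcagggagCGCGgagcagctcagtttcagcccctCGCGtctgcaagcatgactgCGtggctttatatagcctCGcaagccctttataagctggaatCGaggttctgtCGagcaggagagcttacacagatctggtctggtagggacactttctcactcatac
Htra3: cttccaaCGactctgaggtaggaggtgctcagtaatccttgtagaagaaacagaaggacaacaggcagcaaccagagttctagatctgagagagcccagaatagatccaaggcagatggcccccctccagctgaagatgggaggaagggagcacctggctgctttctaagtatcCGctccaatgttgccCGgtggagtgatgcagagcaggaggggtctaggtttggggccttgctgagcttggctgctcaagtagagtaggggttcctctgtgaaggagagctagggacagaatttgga
Crybg1: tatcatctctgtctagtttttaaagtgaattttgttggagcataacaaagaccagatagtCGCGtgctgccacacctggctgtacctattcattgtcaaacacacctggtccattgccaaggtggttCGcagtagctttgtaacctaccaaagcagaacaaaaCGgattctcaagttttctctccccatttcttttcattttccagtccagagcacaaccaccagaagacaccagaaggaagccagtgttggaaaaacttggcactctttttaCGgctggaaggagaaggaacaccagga

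These 4 sequences held 9, 10, 3 and 5 CpGs. The starts with the highest fold among peaks touched by a QSC broad peak, shown for contrast, were Apc2, a relative of the Wnt antagonist Apc (chr10:80298853-80299152, plus strand; summit at base 278), with 21 CpGs, and the organic cation transporter Slc22a3 (chr17:12507655-12507954, minus strand; base 250), with 5 CpGs.
Apc2: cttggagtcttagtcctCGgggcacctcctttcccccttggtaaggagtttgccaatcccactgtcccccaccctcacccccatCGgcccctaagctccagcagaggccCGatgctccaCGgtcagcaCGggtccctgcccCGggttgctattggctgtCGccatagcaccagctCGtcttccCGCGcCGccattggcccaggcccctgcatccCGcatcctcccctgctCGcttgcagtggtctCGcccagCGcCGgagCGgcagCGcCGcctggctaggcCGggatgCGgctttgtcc
Slc22a3: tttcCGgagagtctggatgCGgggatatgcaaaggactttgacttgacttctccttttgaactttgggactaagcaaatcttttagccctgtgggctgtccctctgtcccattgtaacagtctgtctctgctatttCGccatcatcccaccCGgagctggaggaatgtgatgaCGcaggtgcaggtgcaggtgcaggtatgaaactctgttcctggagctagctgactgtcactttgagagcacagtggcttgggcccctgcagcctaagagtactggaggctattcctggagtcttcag

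The other 3 starts were chosen after their values were seen, since the results turn on them. Col15a1, the basement membrane collagen XV (chr4:47207762-47208061, plus strand), lies wholly under the longest ASC-only peak and held 8 CpGs. At the bone morphogenetic protein gene Bmp4 (chr14:46390620-46390919, minus strand; 12 CpGs) and at the Wnt ligand gene Wnt4 (chr4:137277385-137277684, plus strand; 51 CpGs) the ASC-only peak begins inside the gene, downstream of the printed window.
Col15a1: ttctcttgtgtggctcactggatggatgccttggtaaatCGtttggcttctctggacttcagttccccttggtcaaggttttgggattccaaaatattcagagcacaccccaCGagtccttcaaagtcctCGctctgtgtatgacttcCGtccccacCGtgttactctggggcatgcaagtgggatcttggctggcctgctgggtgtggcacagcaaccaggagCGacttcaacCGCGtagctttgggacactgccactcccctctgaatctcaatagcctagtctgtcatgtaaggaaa
Bmp4: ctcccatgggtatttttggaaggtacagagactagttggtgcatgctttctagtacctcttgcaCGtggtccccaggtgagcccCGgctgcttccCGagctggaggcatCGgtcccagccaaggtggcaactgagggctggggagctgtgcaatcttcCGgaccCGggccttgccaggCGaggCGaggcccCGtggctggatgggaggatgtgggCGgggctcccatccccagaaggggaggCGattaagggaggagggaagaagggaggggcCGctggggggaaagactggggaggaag
Wnt4: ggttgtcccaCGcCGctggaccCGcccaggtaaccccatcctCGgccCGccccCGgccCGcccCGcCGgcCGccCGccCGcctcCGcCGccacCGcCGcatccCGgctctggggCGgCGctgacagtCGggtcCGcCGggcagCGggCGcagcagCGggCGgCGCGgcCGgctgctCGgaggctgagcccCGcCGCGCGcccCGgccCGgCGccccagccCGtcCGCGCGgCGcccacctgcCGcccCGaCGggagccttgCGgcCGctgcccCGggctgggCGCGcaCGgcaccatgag

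The CpG content of the 9 printed starts ran from an observed-over-expected ratio of 0.15 at Htra3 to 0.98 at Wnt4. That ratio sets the number of CpGs beside the number that the C and G content alone would give. The untouched starts printed with summits were at 0.68 (Myh2), 0.47 (Ppp1r27), 0.15 (Htra3) and 0.34 (Crybg1), against a median of 0.57 and quartiles of 0.23 and 0.83 over 21263 annotated starts.

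Most ASC-only peaks were weak, short pieces of H3K27me3 in regions where quiescent cells had a broad call. The authors' fold enrichment over background, a linear ratio, had a median of 3.68 for ASC-only peaks, 3.68 for the touched ones and 3.58 for the untouched ones, against 4.50 for ASC peaks that overlapped a QSC narrow peak (shared peaks, n = 23170). The median −log10 q was 4.90, 4.93, 4.78 and 8.16 in the same order, and the median length 744, 758, 618 and 1550.5 bp. These values come from the contrast that chose the peaks and are given as a description. Within the ASC list, the ASC-only share fell with fold, from 76.9% of peaks with a fold up to 3 and 78.3% of those from 3 to 3.5, to 17.1% from 6 to 8 and 2.84% above 8. By length it was 84.2% up to 400 bp and 3.11% above 6000 bp.

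**Figure D1:**
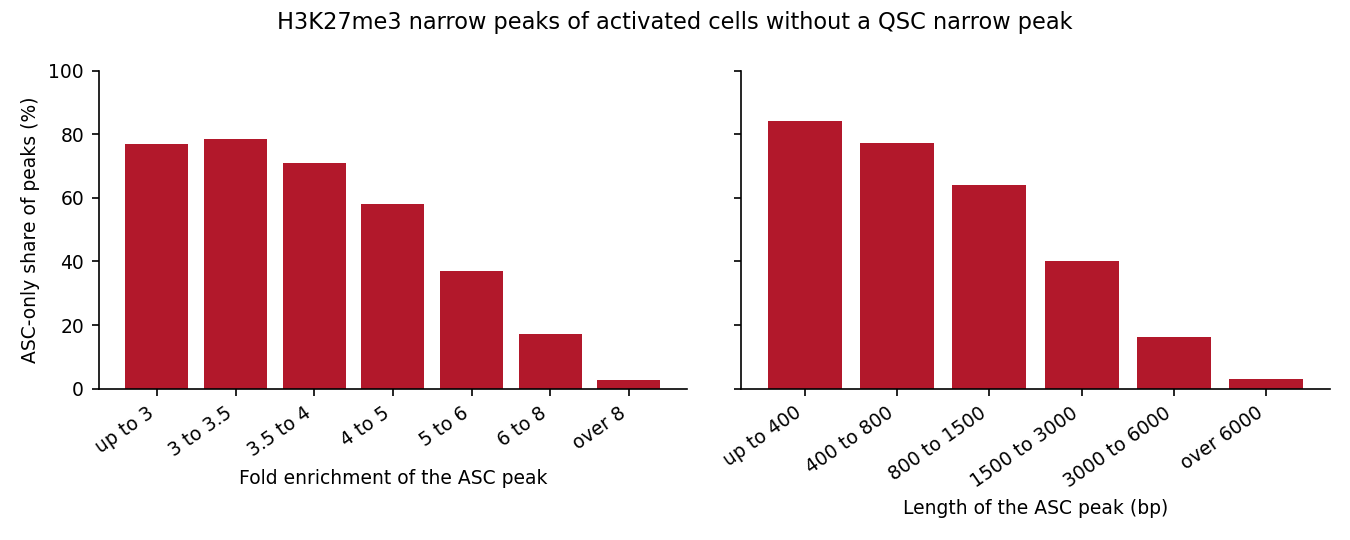
Share of narrow H3K27me3 peaks of activated cells that overlap no narrow peak of quiescent cells (y axis, %), by the fold enrichment of the peak (left) and its length in bp (right); each bar is 1 bin of the pooled list, with no error because the list has no replicates. The share falls from 76.9% at folds up to 3 to 2.84% above 8, and from 84.2% at lengths up to 400 bp to 3.11% above 6000 bp.

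The touched and untouched peaks lay in different surroundings. Of the touched peaks, 86.0% lay wholly inside a QSC broad peak, and their median gap to the nearest QSC narrow peak was 4721 bp. For untouched peaks that gap was 59710.5 bp, and the median gap to a QSC broad peak was 1295.5 bp; 744 of the untouched peaks (23.3%) were more than 5 kb from any QSC broad peak. Almost all ASC-only peaks (99.97%) were inside a broad H3K27me3 peak of activated cells. A total of 5346 such ASC broad peaks, with a median length of 19380 bp, held shared and ASC-only narrow peaks side by side and contained 53.2% of ASC-only peaks. The 8707 ASC broad peaks with ASC-only but no shared peaks, with a median of 8805 bp, contained 46.8% of ASC-only peaks and 81.8% of the untouched ones. Among these, 521 ASC broad peaks were touched by no QSC peak of either list, and they held 787 untouched peaks.

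By the authors' own values within that list, QSC broad calls under touched peaks differed with the presence of a QSC narrow peak in them. QSC broad peaks that touched an ASC-only peak and held no QSC narrow peak (n = 9263) had a median fold of 2.01 and a median −log10 q of 0.58, and 0.561% of them had a q of at most 0.05. Those that touched an ASC-only peak and held a QSC narrow peak (n = 7030) had a median fold of 2.36, and 38.4% had a q of at most 0.05. Those that touched shared peaks (n = 8513) had a median fold of 2.45, and 50.2% had a q of at most 0.05. Over all 130668 QSC broad peaks the median fold was 1.90 and the share 3.85%. The lack of a QSC narrow peak is part of how the 9263 were chosen. Where no QSC narrow peak was present, the QSC broad call under a touched peak thus rarely passed q = 0.05, and an untouched peak had no QSC broad call at any q in the list. At the border of the rule, 670 ASC-only peaks lay within 100 bp of a QSC narrow peak, and 646 ASC peaks were left out for an overlap of 100 bp or fewer. Just inside were peaks abutting or 1 bp from a QSC peak, such as those within Slc1a2 (fold 4.98, 1632 bp long), within Shc2 (4.26, 308 bp long) and at 104693 bp from Syt13 (3.83, 810 bp long). Just outside were peaks at 3789 bp from Hand1 (3.74, 720 bp long), at 6051 bp from Cbll1 (4.70, 1371 bp long) and at 19590 bp from Uncx (2.93, 845 bp long).

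The untouched peaks with the highest fold lay at genes of secreted and matrix proteins as well as at others. The longest ASC-only peak was at Col15a1 and ran over 16026 bp (chr4:47201929-47217954), with a fold of 9.31 and a −log10 q of 39.2. It lay in an ASC broad peak of 78661 bp, and the nearest QSC broad peak was 43724 bp away. Within 5 kb of the Col15a1 start, ASC-only peaks covered all 10001 bp, the most of any coding gene, and QSC narrow and broad peaks covered 0 bp. H3K4me3 narrow peaks covered 2636 bp there in QSC and 1674 bp in ASC. Further peaks of the same domain, of 6583 bp inside the gene (fold 9.61) and of 9463 bp upstream of it (fold 7.36), were also untouched.

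**Figure D2:**
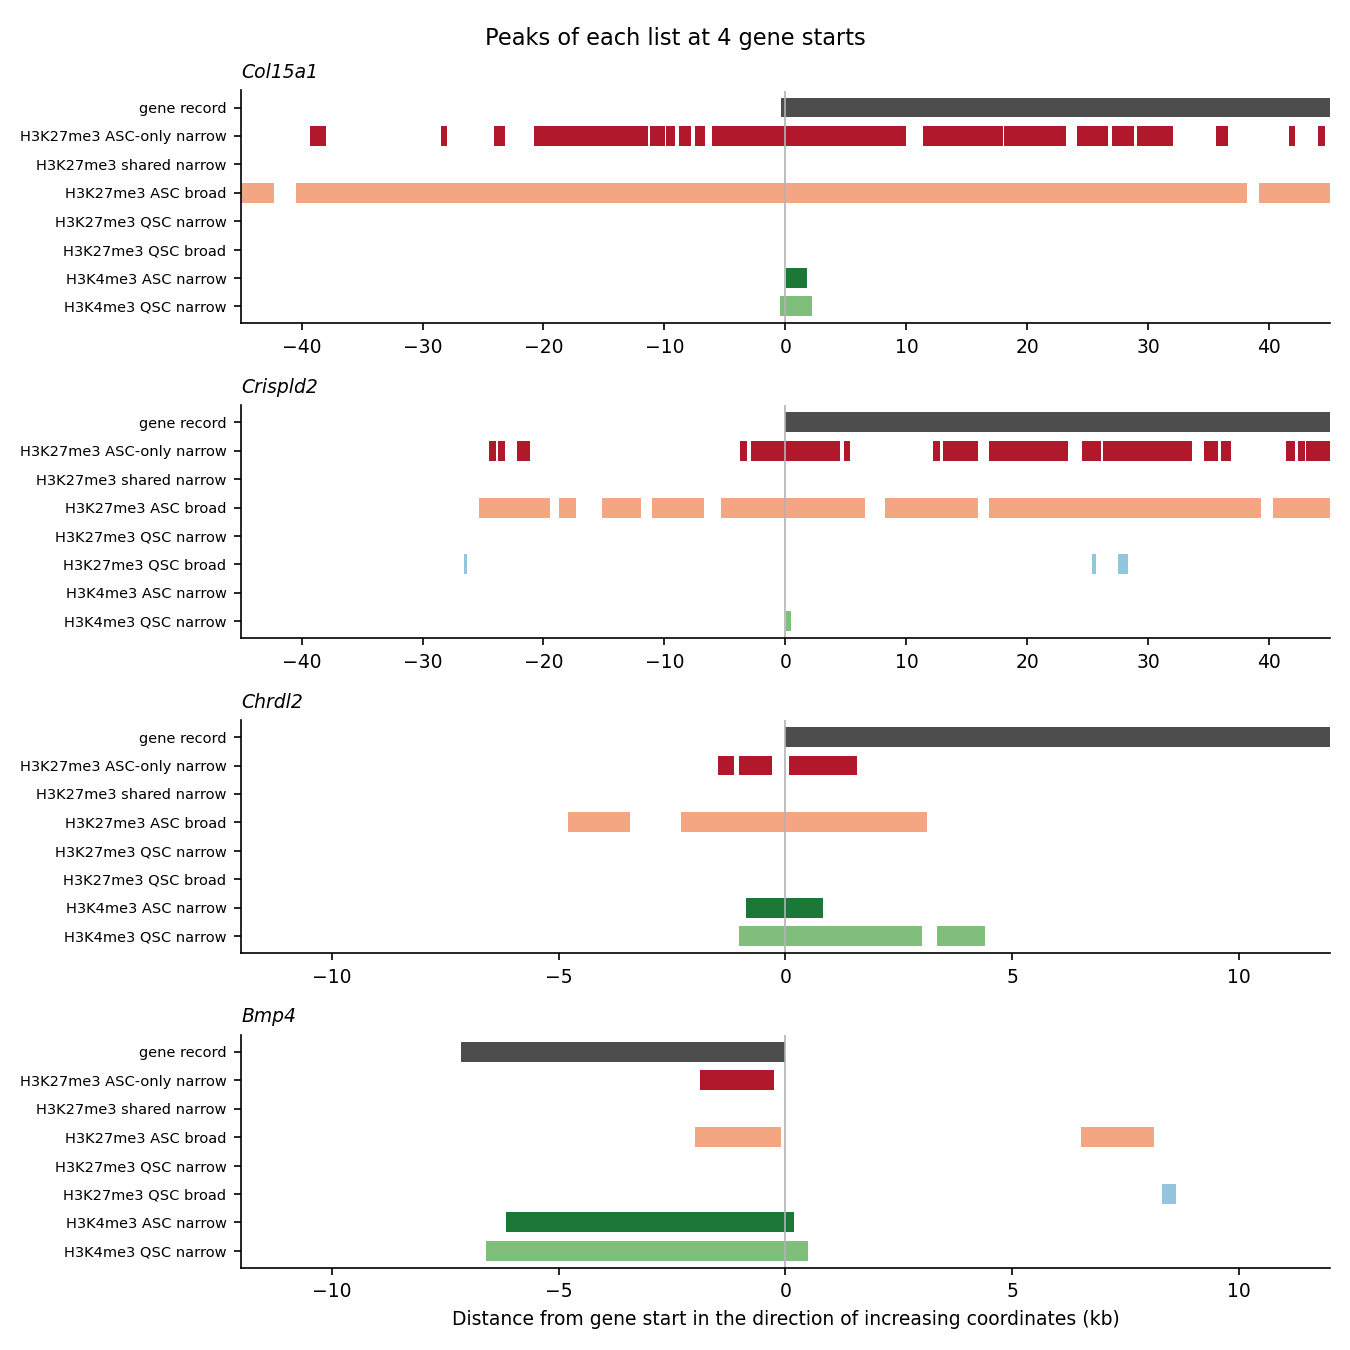
Peaks of each list around the starts of Col15a1, Crispld2, Chrdl2 and Bmp4; the x axis is the distance in kb from the gene start in the direction of increasing coordinates, each row is a list, and each bar is a peak (dark grey, the gene record). At all 4 starts ASC-only narrow peaks lie inside ASC broad peaks with no QSC narrow peak in view; H3K4me3 narrow peaks of both states lie at Col15a1, Chrdl2 and Bmp4, and of QSC alone at Crispld2. For Chrdl2 the start is the lower end of its record.

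Crispld2, a secreted protein with a cysteine-rich domain, showed a similar arrangement. A peak of 7395 bp covered its start (chr8:119989571-119996965, fold 7.67), the nearest QSC broad peak was 20830 bp away, and an H3K4me3 narrow peak of 406 bp within 5 kb of the start was found in QSC and none in ASC. Within the gene lay a peak of 6567 bp (fold 9.02), and a peak of 2312 bp (fold 8.38) crossed the end of the gene record. A stretch of 15 ASC-only peaks over 43432 bp, merged across gaps of up to 3 kb (chr8:120033805-120077236), began inside the gene and ran past its end. It was untouched throughout, with 0 bp of QSC narrow or broad peaks. Elsewhere inside the gene there were 2 QSC broad peaks, from 25358 to 25676 bp and from 27530 to 28353 bp after the start. Tnxb, the matrix protein tenascin X, carried a peak of 10874 bp with a fold of 11.0 (chr17:34669809-34680682), which lay 32184 bp from the nearest QSC broad peak and had no H3K4me3 in either state at the start window. The highest fold of any untouched peak, 11.9, was at Ypel4, a member of the Yippee-like family (chr2:84734547-84738409, 3863 bp). H3K4me3 narrow peaks within 5 kb of the Ypel4 start covered 2068 bp in QSC and 0 bp in ASC.

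The other untouched peaks among the 10 highest folds were near Zbtb7c (9.20; 13683 bp from an end of its record), in Arhgef28 (8.38), at the start of Fam222a (8.38) and 60723 bp from Lrig1, which encodes a negative regulator of growth factor receptors (8.38). Col15a1 and Crispld2 each supplied a pair of the 10. Fam222a differed from Ypel4 in keeping H3K4me3 in both states, 1911 bp in QSC and 1899 bp in ASC.

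Among touched peaks the highest fold was 13.7, at Slc6a7, the brain proline transporter (chr18:61000160-61010105, 9946 bp), 301 bp from a QSC narrow peak. Several of the others were just as close to a QSC narrow peak: 175 bp at Lrrc3c (fold 10.4), 161 bp at Ttbk1 (9.58) and 368 bp at Phospho1, a phosphatase of bone mineralisation (9.20). Others stood apart from any: Itga11, the collagen-binding integrin α11, carried a peak with a fold of 10.2 (chr9:62676313-62680180) at 34653 bp from a QSC narrow peak, under a QSC broad peak with a fold of 1.97 and a −log10 q of 0.56. Espn, an actin-bundling protein of hair cell stereocilia, had a fold of 9.40 at 30419 bp, and Notum, a secreted Wnt deacylase, a fold of 9.20 at 7529 bp. The remaining peaks of the 10 were in Adamtsl5 (9.81), in Cacna1g (9.20) and 23698 bp from Fam71a (9.20).

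Merged across gaps of up to 3 kb, ASC-only peaks formed 20512 stretches. Most of these stretches, 12907 (62.9%), were a single peak, and 874 held 5 or more. Counted by peaks, the 12907 that stood alone were a minority of the 35284 ASC-only peaks. The majority lay within 3 kb of another ASC-only peak. The stretch with most peaks, 29 over 62270 bp of chromosome 2, spanned the seminal vesicle secretion genes Svs3b, Svs4 and Svs3a. QSC broad peaks covered 50262 bp of it and 4 of its 29 peaks were untouched. The next held 17 peaks over 41563 bp at 75141 bp from Ubl3, and 16 over 68079 bp in Glis1, a Krüppel-like zinc finger gene. At Abca4, a retinal lipid transporter, 13 of 14 peaks over 34907 bp were untouched. At Pde6c, a cone phosphodiesterase, none of 14 was untouched, and at Itga11 it was 3 of 14. By bases within 5 kb of the start, Col15a1 was followed by Espn (9041 bp), Svs3a (8710 bp), the lactate transporter gene Slc16a8 (8601 bp), Svs4 (8220 bp), Tmem59l (8212 bp), Crispld2 (8182 bp), Mroh4 (8119 bp), Itga11 (8083 bp) and the chemokine gene Ccl6 (8070 bp). QSC narrow peaks covered 0 bp at all 10. QSC broad peaks covered 0 bp at Col15a1 and Crispld2, 1903 bp at Espn and at least 6115 bp at the other 7.

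Position and the second mark were not used by the rule. A gene start window, 1 kb either side of an annotated start of a protein-coding gene, was met by 5.86% of ASC-only peaks, with 5.51% of touched and 9.37% of untouched peaks, against 12.8% of shared peaks and 2.31% of QSC-only peaks (QSC narrow peaks that overlap no ASC narrow peak, n = 15289). Shares inside a protein-coding gene record were closer: 35.1% of ASC-only peaks, 40.4% of untouched, 31.3% of shared and 34.6% of QSC-only peaks. A total of 50.9% of ASC-only peaks lay outside any annotated gene. H3K4me3 narrow peaks of ASC overlapped 2.20% of ASC-only peaks, 1.76% of the touched and 6.58% of the untouched, against 5.88% of shared and 1.07% of QSC-only peaks. Among peaks at a start window, the share was 49.5% for untouched, 22.3% for touched and 34.9% for shared peaks. These shares describe pooled lists, in which peaks are not replicates. By chromosome, the untouched share of ASC-only peaks ran from 7.15% on chromosome 1 to 15.8% on chromosome 3 among autosomes and was 19.1% on the X (25 of 131).

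Genes whose start window had an ASC-only peak and no QSC broad peak mostly carried H3K4me3 in both states. For 4395 of the 21887 protein-coding genes the strand was not read, and both ends of the gene record count as starts. Of the genes named here these include Chrdl2, Mmp2, Lox, Col1a1, Fbn2, Col12a1, Pdgfrb, Cd248, Fzd2, Notum, Wnt5a, Wnt10a, Dkk3, Sfrp1, Gdf5, Gdf6, Bmp7, Pax3, Lgr5, Erbb3, Cdkn1c, Meox1, Slc6a7, Cacna1g, Zbtb7c, Mroh4 and every other gene of chromosome 18. Of the 21887 genes, 1689 (7.72%) had an ASC-only peak at a start window, 1418 (6.48%) had one with no QSC narrow peak in the same window, and 251 (1.15%) had one with no QSC broad peak in the window. Of the 251 genes, 178 (70.9%) had H3K4me3 narrow peaks of both states in the window, which is 0.813% of all coding genes; 5 had H3K4me3 in ASC alone, 12 in QSC alone and 56 in neither. The share with H3K4me3 in both states was 33.1% for the 1418 genes (470), 29.6% for the 2409 genes with a shared peak at the start (11.0% of all), and 53.7% for all coding genes. The lack of a QSC broad peak is part of how the 251 were chosen. Such a peak met the window of 14.7% of all genes with H3K4me3 in both states. The share among all genes with no QSC broad peak is not given, so the 70.9% has no like comparison here. The windows of the 251 genes met 285 ASC-only peaks, of which 211 were untouched; the other peaks reached a QSC broad peak outside the window. Within 5 kb of the start, 216 of the 251 genes had no QSC narrow peak and 65 no QSC broad peak.

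The opposite case was rarer. A QSC-only peak with no ASC narrow peak in the window was found at 203 genes, of which 41 (20.2%) had H3K4me3 in both states, and a QSC-only peak with no ASC broad peak at 12 genes, none of which had H3K4me3 in both states. The QSC narrow list is the shorter and the QSC broad list the longer of its pair, so these counts do not compare equal lists. Among all genes with H3K4me3 in both states, a QSC broad H3K27me3 peak met the window of 14.7% and an ASC broad peak that of 22.4%.

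Around starts with H3K4me3 in both states (11375 stranded starts), untouched peaks flanked the start and spared it. They covered 0.167% of starts in the 100 bp bin centred 50 bp upstream, 0.545% at 1050 bp upstream and 0.659% at 1450 bp downstream, and 0.0703% at 4950 bp downstream. ASC-only peaks as a whole covered 0.756% at 50 bp upstream, 2.13% at 1050 bp upstream and 2.16% at 1450 bp downstream. Shared peaks were likewise lowest at the start, at 2.05%, but stayed high far upstream, at 7.75% at 4550 bp. Around 9062 starts with H3K4me3 in neither state ASC-only peaks did not dip at the start: they covered 3.55% at 50 bp upstream and 3.03% at 1050 bp upstream. Untouched peaks were few there and uneven, at 0.132% at 1050 bp upstream, 0.232% at 350 bp upstream, 0.166% at 50 bp upstream, 0.121% at 250 bp downstream and 0.243% at 1050 bp downstream.

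**Figure D3:**
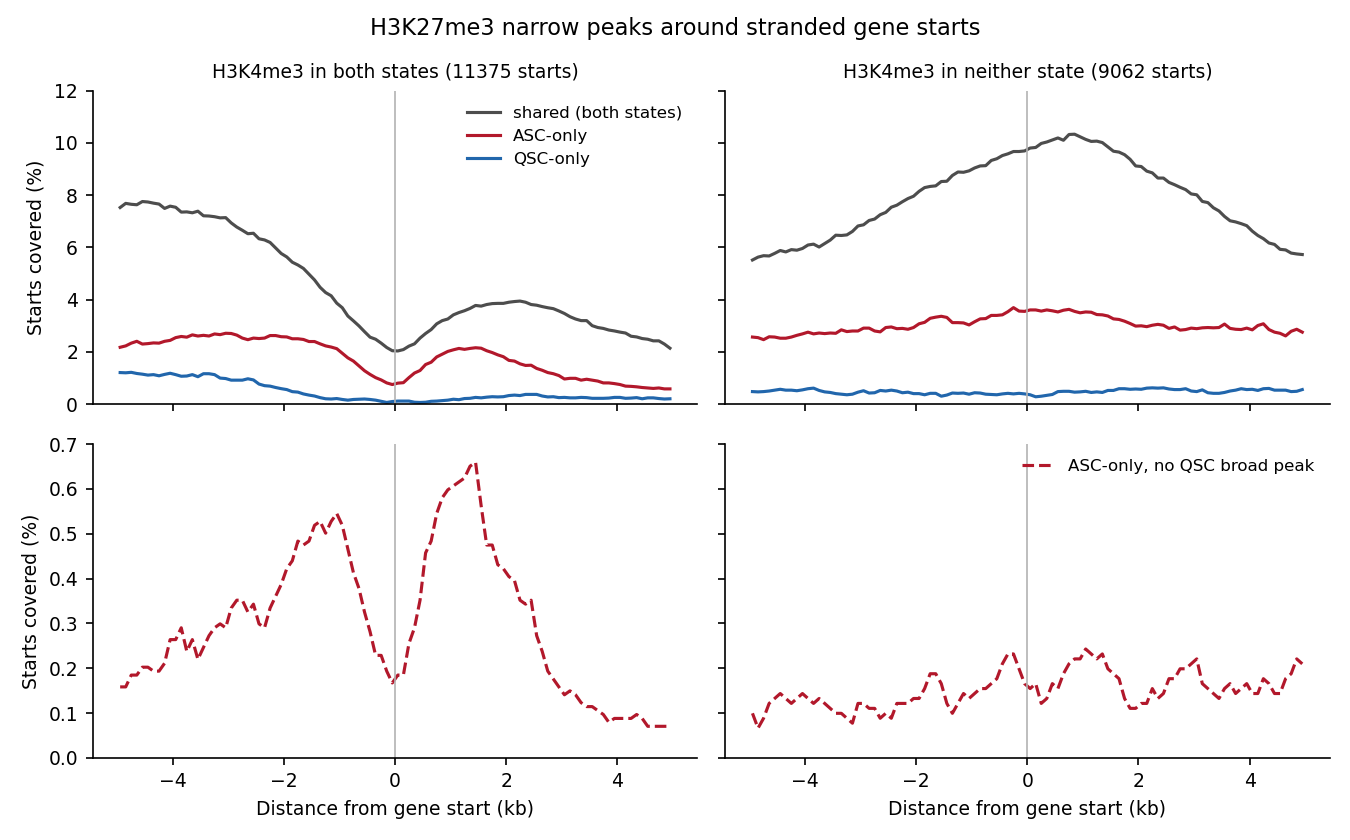
Share of stranded gene starts covered (y axis, %) in 100 bp bins by distance from the start (x axis, kb, negative upstream), for starts with H3K4me3 narrow peaks of both states (left) and of neither (right); the upper row shows shared, ASC-only and QSC-only narrow H3K27me3 peaks and the lower row ASC-only peaks touched by no QSC broad peak, on a finer scale. At H3K4me3 starts the untouched peaks reach 0.545% at 1050 bp upstream and 0.659% at 1450 bp downstream and drop to 0.167% next to the start.

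The length of H3K4me3 at these genes was then set beside that at other genes. Within 5 kb of the start, the bases under H3K4me3 narrow peaks were more numerous in ASC than in QSC at most genes marked in both states: over all 11754 such genes the median log2 of ASC over QSC bases was 0.54, and 9.33% (1097) had fewer in ASC. At the 178 genes with an ASC-only peak and no QSC broad peak the median was 0.06, and 77 (43.3%) had fewer bases in ASC. The median was 0.18 (33.0% with fewer) at the 470 genes with no QSC narrow peak, 0.41 (18.5%) at 714 genes with a shared peak, and 0.68 (4.88%) at the 41 genes with a QSC-only peak. These groups of genes overlap in part and each rests on 1 list per state, so the values are set beside that of all genes with no test. In QSC the median length was 2138 bp at the 178 genes and 1846 bp over all genes, and in ASC 2185 and 2761 bp.

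**Figure D4:**
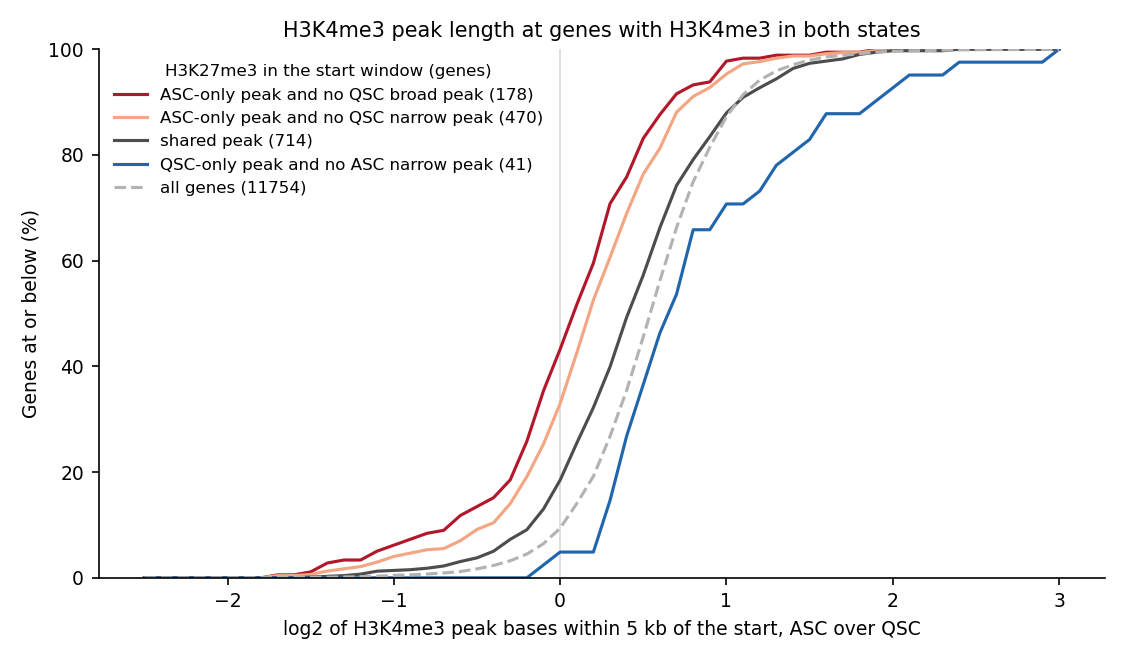
Cumulative share of genes (y axis, %) by the log2 ratio of bases under H3K4me3 narrow peaks within 5 kb of the start, ASC over QSC (x axis), for genes with H3K4me3 in both states, grouped by H3K27me3 in the start window; numbers of genes are in the legend and groups overlap in part. At a ratio of 0 the curve stands at 43.3% for genes with an ASC-only peak and no QSC broad peak and at 9.38% for all genes.

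The named genes with the largest shortening among the 178, chosen after their values were seen, included Mmp2, which encodes a matrix metalloproteinase that cleaves collagen IV: its H3K4me3 covered 2281 bp in QSC against 657 bp in ASC, with 522 bp of ASC-only H3K27me3 and 0 bp of QSC broad peaks. Chrdl2, a secreted BMP antagonist of the chordin family, had 5080 bp of H3K4me3 in QSC but 1701 bp in ASC. The values were 2751 and 996 bp at Aatk, 4522 and 1687 bp at Nppc, which encodes C-type natriuretic peptide, and 4183 and 1574 bp at Tmem51. At Htra3 they were 5885 and 2285 bp, at Gja4, which encodes connexin 37, 1031 and 457 bp, and at Hmcn2, a hemicentin of the extracellular matrix, 7069 and 3186 bp. All 8 had 0 bp of QSC broad H3K27me3 within 5 kb. Such losses were not common: 11 of the 178 (6.18%) kept at most 50% of their QSC bases, against 0.468% of all genes.

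Of 48 extracellular matrix genes 9 (18.8%) had an ASC-only peak at the start, against 7.72% of all coding genes, and 7 (14.6%) had one with no QSC broad peak in the window, against 1.15%; 5 of the 7 had H3K4me3 in both states. Among the 38 lists the next share with no QSC broad peak was that of the pericyte and smooth muscle markers, at 2 of 14 (14.3%). Over genes with a stranded start alone, 4 of 29 matrix genes (13.8%) had such a peak, against 1.03% of all. The 7 rest on 6 peaks, since Col4a1 and Col4a2, the chains of basement membrane collagen IV, share a start region and a peak (chr8:11312843-11314285, fold 4.91). Besides these, Tnxb, Col15a1 and Mmp2, they were Lox, the lysyl oxidase that cross-links collagen (fold 4.09, 1292 bp), and Col1a1, the main fibrillar collagen chain (fold 3.07, 579 bp). Around Col4a1, H3K4me3 covered 4521 bp in QSC against 5437 bp in ASC, and at Lox 1729 and 1961 bp, longer in ASC at both. At Col1a1 it covered 0 bp in QSC against 1077 bp in ASC. The remaining pair, Fbn2 and Col12a1, had touched peaks with 7222 and 2564 bp of QSC broad peak within 5 kb. In the collagen family as a whole, which shares genes with this list, 11 of 44 had an ASC-only peak at the start and 4 (9.09%) one with no QSC broad peak.

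BMP and TGF-β signalling, which in satellite cells bears on the choice between proliferation and differentiation, had ASC-only peaks at 10 of 44 genes (22.7%, against 7.72% of all coding genes). At 5 of the 44 (11.4%, against 1.15%) there was no QSC broad peak in the window, and 4 of these had H3K4me3 in both states. Among ligands, Bmp4 had a peak of 1638 bp (chr14:46388784-46390421, fold 4.91) with 5493 bp of H3K4me3 in QSC and 5194 in ASC, and Bmp6 a peak of 1582 bp (chr13:38346161-38347742, fold 4.29) with 4565 and 3253 bp. At Inhbb, the βB subunit of activin B, ASC-only peaks covered 5149 bp within 5 kb, and H3K4me3 4388 bp in QSC and 3465 bp in ASC. Of the antagonists, Chrdl2 had a peak (chr7:100006494-100007992, fold 5.93), 89216 bp from the nearest QSC broad peak. The other ligand genes, Gdf6 (fold 7.16), Inha (5.11), Bmp5 (4.70), Gdf5 (3.48) and Bmp7 (3.27), had touched peaks, with between 4264 and 10001 bp of QSC broad peak within 5 kb. Inha encodes the inhibin α subunit. The Bmp7 peak lay at one end of the record and H3K4me3 at the other. Over genes with a stranded start alone, 5 of 29 genes of the pathway (17.2%, against 6.77% of all) had an ASC-only peak. Of the 29, 3 (10.3%, against 1.03% of all) had one with no QSC broad peak.

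At Wnt genes, ASC-only peaks mostly lay where QSC had a broad H3K27me3 call, as they did over all coding genes. Of the 1689 coding genes with an ASC-only peak at a start window, 251 had one with no QSC broad peak there. Of 55 genes of the pathway 18 (32.7%, against 7.72% of all coding genes) had an ASC-only peak at the start, while 28 (50.9%, against 11.0%) had a shared peak and 3 (5.45%, against 1.15%) an ASC-only peak with no QSC broad peak in the window. Over genes with a stranded start alone, 10 of 36 (27.8%) had an ASC-only peak, against 6.77% of all coding genes with such a start. Those 3 were Wnt4 (chr4:137277714-137279556, fold 7.16) and the receptor genes Fzd9 (fold 4.70) and Fzd2 (fold 4.50), all with H3K4me3 in both states. The untouched Wnt4 peak was only 449 bp from a QSC broad peak, and shared peaks covered 2866 bp within 5 kb of that start. The Fzd2 peak was touched by a QSC broad peak outside the window. Other ligand genes with ASC-only peaks were Wnt2b (fold 8.18, 4382 bp), Wnt6 (7.56), Wnt5a (7.36), Wnt2 (5.11), Wnt10a and Wnt8b. Secreted antagonists and modulators were Notum (9.20, 4993 bp), Dkk3 (7.56), Sfrp2 (6.95), Dkk2 (5.11) and Sfrp1 (3.27), the last with its peak at the end of the record away from H3K4me3. Around Notum no QSC narrow peak lay within 5 kb, QSC broad peaks covered 4504 bp, and H3K4me3 covered 1741 bp in QSC and 1929 bp in ASC.

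Of 39 satellite cell and quiescence genes 8 (20.5%, against 7.72% of all coding genes) had an ASC-only peak at the start and 3 (7.69%, against 11.0%) a shared peak. Over genes with a stranded start alone, 3 of 27 (11.1%) had an ASC-only peak, against 6.77% of all coding genes with such a start. The 4 with no QSC broad peak in the window (10.3%, against 1.15%) all had H3K4me3 in both states: Chrdl2, Bmp4, Bmp6 and Cdh15, which encodes M-cadherin, the adhesion molecule between the satellite cell and its fibre. Chrdl2, Bmp4 and Bmp6 are also in the BMP and TGF-β list, with the same peaks, so the counts of both lists are not independent. The Cdh15 peak was short and weak (chr8:122847142-122847561, 420 bp, fold 3.07, −log10 q 3.05). With neighbouring peaks, ASC-only bases within 5 kb of the Cdh15 start came to 1969 bp, QSC broad peaks covered 0 bp, and H3K4me3 covered 5140 bp in QSC and 2659 bp in ASC. At Cdkn1c, the cell cycle inhibitor p57, the peak was longer and stronger (3096 bp, fold 7.16) but lay where QSC broad peaks covered all 10001 bp within 5 kb. Erbb3 (fold 4.29), Pax3 (4.29) and Lgr5, which encodes an R-spondin receptor (3.68), also had touched peaks, which at Pax3 and Lgr5 lay at the end of the record away from H3K4me3. Pax7, Myf5 and Myod1 had none at their starts.

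Genes of the differentiated muscle fibre had ASC-only peaks that were mostly weak and touched by a QSC broad peak, as were most ASC-only peaks. Of 46 sarcomere and contraction genes 6 (13.0%, against 7.72% of all coding genes) had an ASC-only peak, and Myh2 alone (2.17%, against 1.15%) had one with no QSC broad peak in the window (fold 5.72, 1228 bp, chr11:67170267-67171494). ASC-only peaks covered 5005 bp within 5 kb of the Myh2 start, QSC broad peaks 0 bp, and no H3K4me3 was called in either state. The others were Myl2, Casq2, Csrp3, Actn2 and the embryonic heavy chain gene Myh3, with folds from 2.72 to 3.83. Of 36 myogenic regulators only Meox1, a homeobox gene of the somite, had an ASC-only peak (fold 4.50), and 7 had a shared peak.

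The listed cell cycle genes had no ASC-only peak at their starts. Developmental regulators of other lineages had such peaks at 5.13% to 10.1% of their starts, against 7.72% of all coding genes. None of 45 cell cycle genes and none of 20 ubiquitously expressed reference genes had an ASC-only peak, and shared peaks were at 1 and 0 of them. Of 63 neural lineage regulators 62 (98.4%) had a shared peak and 4 (6.35%) an ASC-only peak. Of 69 other mesoderm and endoderm regulators 56 (81.2%) had a shared peak and 7 (10.1%) an ASC-only peak, and in the Hox family the numbers were 25 (64.1%) and 2 (5.13%) of 39. In none of these 3 lists was an ASC-only peak free of a QSC broad peak. Of 29 Notch pathway genes 2 (6.90%) had an ASC-only peak, near the share of all coding genes: Nrarp, a feedback inhibitor of Notch (fold 5.13, 4275 bp), with H3K4me3 in both states and no QSC broad peak in the window, and Lfng, the lunatic fringe glycosyltransferase (fold 4.29), with shared peaks beside it.

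Families expressed in differentiated tissues had many ASC-only peaks, mostly on top of a QSC broad call. Keratin genes had them at 20 of 53 starts (37.7%), potassium channel genes at 27 of 94 (28.7%), and glutamate and GABA receptor genes at 12 of 44 (27.3%), against 7.72% of all coding genes. With no QSC broad peak in the window the numbers were 0, 4 and 0, against 251 of the 1689 coding genes with an ASC-only peak. Keratin genes lie in clusters, so neighbouring starts share domains. No keratin gene had H3K4me3 in both states. Among potassium channel genes Kcnma1, which encodes the large-conductance calcium-activated channel, had a peak of 2062 bp with a fold of 5.94, 0 bp of QSC broad peak within 5 kb, and 2945 bp of H3K4me3 in QSC against 2902 in ASC. Clustered protocadherins, none with a stranded start, had ASC-only peaks at an end of 14 of 57 records, but 13 of these share a single peak (chr18:37183871-37187501, fold 4.91). Olfactory receptors had them at 45 of 1106 (4.07%).

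Markers of other cells of muscle had ASC-only peaks at 4 of 14 pericyte and smooth muscle genes (28.6%), 4 of 15 Schwann and glial genes (26.7%), 5 of 23 fibro-adipogenic and fibroblast genes (21.7%), 4 of 26 immune genes (15.4%) and 2 of 18 endothelial genes (11.1%), against 7.72% of all coding genes. With no QSC broad peak in the window there were Mcam (fold 4.70, 1940 bp) and Pdgfrb (3.27) of the pericyte list, Pmp22, a myelin protein gene (5.11, 3065 bp), Col1a1, and Egfl7 of the endothelial list (3.17). H3K4me3 covered 5598 bp around Pmp22 in QSC against 4585 bp in ASC, and 2323 and 2793 bp around Mcam. Cd248 and Cldn5, both with touched ASC-only H3K27me3 peaks (folds 3.17 and 3.90), had H3K4me3 in ASC alone. In a population, both marks at a start may come from different cells, and that was not tested.

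**Figure D5:**
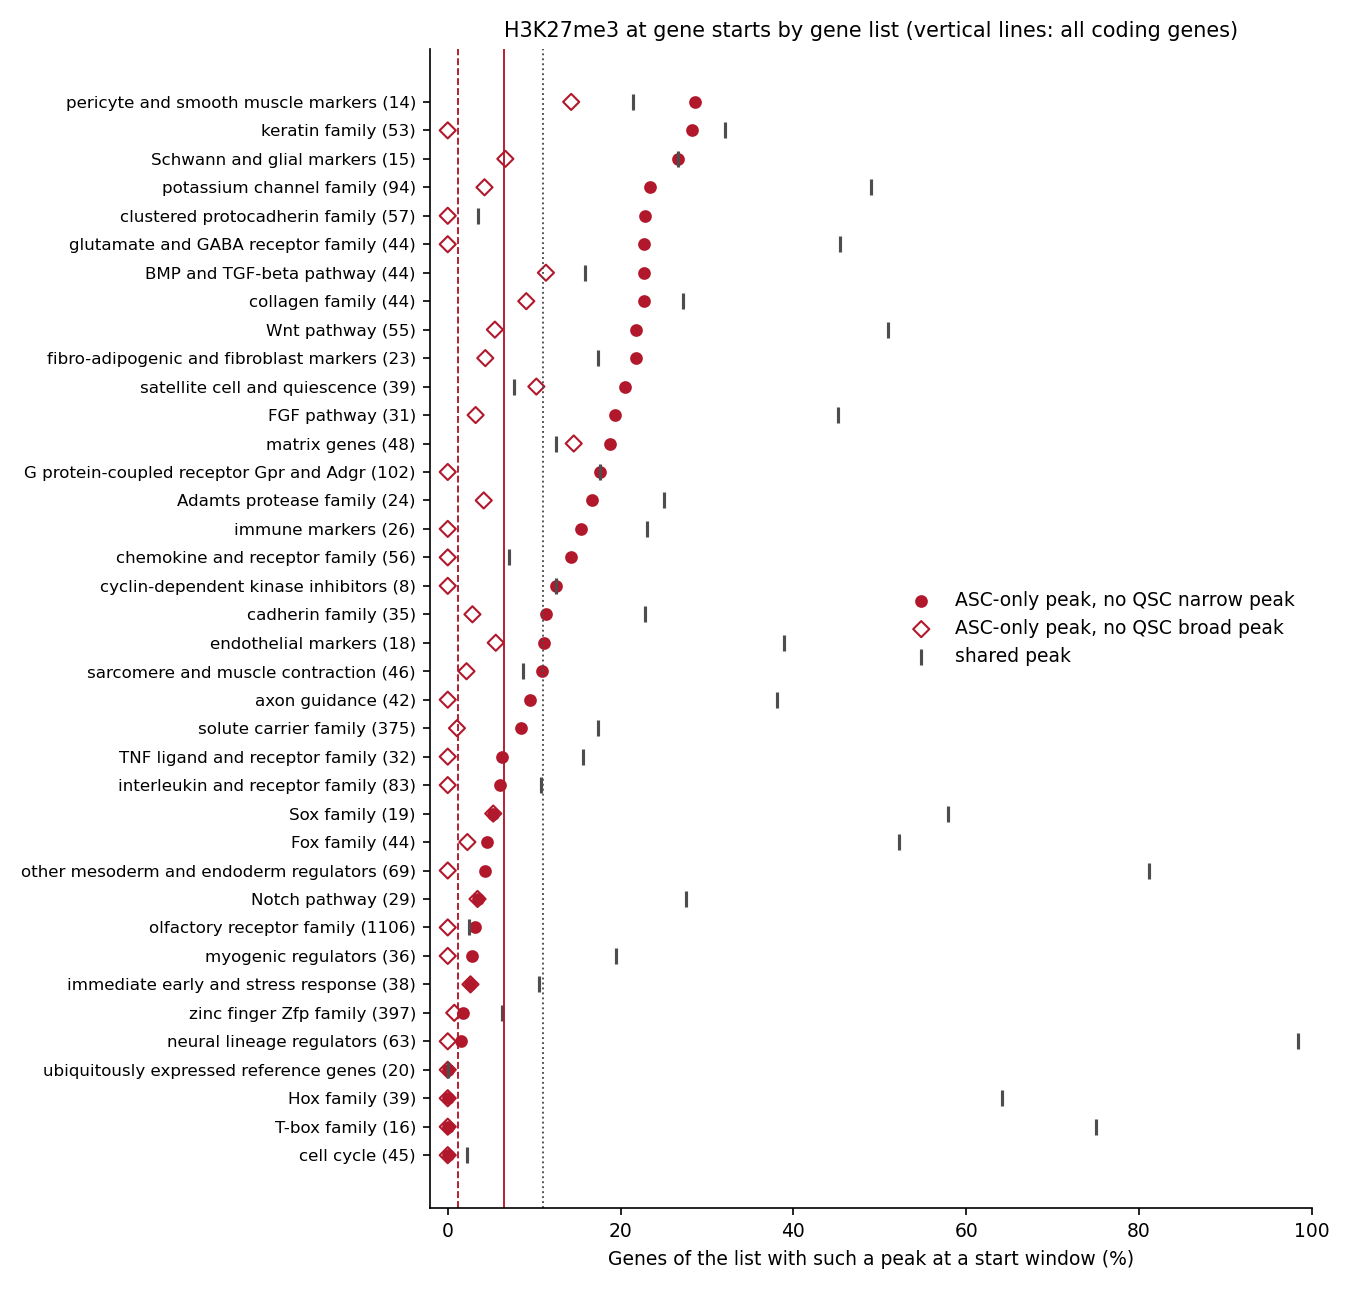
Share of the genes of each list (y axis, number of genes in parentheses) with an ASC-only peak and no QSC narrow peak in a start window (filled circles), an ASC-only peak and no QSC broad peak (open diamonds) or a shared peak (ticks), in % on the x axis; vertical lines give the same for all 21887 coding genes (6.48%, 1.15% and 11.0%). With no QSC broad peak, matrix genes stand at 14.6% and the 14 pericyte and smooth muscle markers at 14.3%; neural regulators stand at 98.4% with a shared peak, and 13 of the protocadherin genes share 1 ASC-only peak.

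The base composition of starts with an ASC-only peak followed H3K4me3. Over the 300-base start sequences the median CpG ratio was 0.47 at 1311 starts with an ASC-only peak in the window, against 0.57 over all starts and 0.61 at starts with a shared peak and no ASC-only peak. Starts with an ASC-only peak and no QSC broad peak (n = 196) were at 0.73, and 63.8% of them had a ratio of at least 0.6, against 47.7% of all. The ratio of all starts with no QSC broad peak is not given. Within starts that had H3K4me3 in both states the difference was small, 0.79 for the 148 with an ASC-only peak and no QSC broad peak and 0.79 for all 11375. Starts with an ASC-only peak, no QSC narrow peak and no H3K4me3 in either state (n = 629) were at 0.26.

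Short motifs were counted in the same sequences on both strands. The GC box GGGCGG was in 59.7% of the 196 starts, 46.2% of all starts and 69.4% of all starts with H3K4me3 in both states; it contains a CpG and so moves with CpG content. The E-box CAGCTG, a core bound by myogenic factors, was in 17.9% of the 196 and 15.6% of all, the TATA box TATAAA in 8.67% and 12.6%, and the AP-1 motif TGANTCA in 3.06% and 6.99%. In the 629 starts without H3K4me3 the shares were 19.9% for CAGCTG and 18.6% for TATAAA. A match is a description of letters in this window, and the windows of several starts of a gene can overlap. Of 1005 miRNA hairpins, 19 lay under an ASC-only peak, 1 of these (Mir6769b) under an untouched peak, and 53 lay under a shared peak. No share over other short features is given beside these counts, so they are a description only.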

How the data were processed

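H3K27me3 and H3K4me3 were profiled in muscle stem cells (QSC and ASC, 2 immunoprecipitated replicates per mark and state, each with an input; 16 samples), grouped by the sample titles. The submitters' processing notes name MACS2 2.1.1, bedtools 2.26.0, Bowtie2 2.3.2, Trimmomatic 0.36, SAMtools 1.3, Picard 2.9.2 and bcl2fastq 2.19, and the build mm10. No settings are given in the sources used here. The authors deposited 8 peak lists, and the labels name each for both replicates of a group. Each deposited peak has a fold enrichment (a linear ratio), −log10 values of p and q (a p-value and a q-value), a score that was not used, and, in narrow lists, a summit position. These values were used within a list only. Depth is unknown, so no interval is given.

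Overlaps needed 1 bp and were computed in Python 3.11.15 with numpy 2.4.6 and pandas 2.3.3, and the interval code was tested on simulated data. Gene records and 300-base start sequences came from RefSeq for GRCm38.p6, which shares mm10 coordinates. Of 21887 coding genes, 17492 had stranded starts (21263 starts), and both ends of the record were used for the other 4395. Where a gene has several starts, values within 5 kb are those of the start with most ASC-only bases; H3K4me3 lengths compared between groups of genes are those of the start that put the gene in its group. Windows reached 1 kb either side. H3K4me3 calls are narrow peaks. The 38 gene lists (20 of symbols, 18 of families) all matched. Members and lists were chosen with earlier results of these data known. Genes named were the 10 peaks of highest fold (untouched and touched apart), the 10 longest, the 10 genes with most bases within 5 kb, the 10 fullest stretches, up to 10 list members by fold, and the 5 peaks nearest the border of the rule on each side; others are said to be chosen later or are markers. The alternatives raised the threshold (−log10 q to 5 or fold to 3), used equal numbers of peaks, changed the overlap that counts as shared (a QSC peak within 1 kb, or 50% coverage), the window (500 bp, 2.5 kb), the H3K4me3 list (broad), the genes (all 49943 annotated) or the start (summit inside the sequence), and counted touching as lying inside a broad peak; chosen after seeing the data were stranded starts alone (gene and list counts), untouched peaks alone, and every alternative for the genes with no QSC broad peak. Some members of the gene lists that entered the counts are not reported here by name.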

Additional observations from a re-analysis of the deposited data

How the results depend on the processing

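Values of shared peaks or of all genes are not given for most of these settings, so the direction of a result against them is mostly not shown. For H3K4me3 overlap the direction against shared peaks (5.88%) turned with the choice of peaks. It was 2.20% for all ASC-only peaks and 6.58% for untouched peaks alone. With a −log10 q of at least 5 in both lists there were 22018 ASC-only peaks, of which 77.9% were ASC-only before; 5.66% were untouched, 3.52% overlapped ASC H3K4me3, 99.99% lay inside an ASC broad peak, the median CpG ratio was 0.52, and 76.9% of genes with no QSC broad peak had H3K4me3 in both states (182 genes). A fold of at least 3 gave an H3K4me3 overlap of 2.40%. Equal numbers of peaks gave 23688 ASC-only peaks, 7.86% untouched and 2.82% with H3K4me3. Counting a QSC peak within 1 kb as shared gave 11.3% untouched and 35.6% inside a coding record, and requiring 50% coverage gave 7.58% untouched and 2.61% with H3K4me3. A 2.5 kb window met 2721 genes. The ASC H3K4me3 broad list raised the overlap to 5.34%, untouched peaks alone gave 6.58%, all annotated genes raised the share inside a record to 45.4%, and starts holding a summit had a CpG ratio of 0.30. With a window of 500 bp, 59.8% of the genes with no QSC broad peak had H3K4me3 in both states. The causes were not tested.

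The number of genes with no QSC broad peak was between 180 and 269, and the share of their H3K4me3 genes with fewer H3K4me3 bases in ASC between 41.4% and 49.2%. Matrix genes with no QSC broad peak numbered 5 to 7 and BMP and TGF-β genes 4 or 5 over 5 settings. Over genes with a stranded start alone, chosen after seeing the data, they numbered 4 and 3, and ASC-only peaks were at 1184 genes, 14 of them potassium channel genes, 7 collagen genes and none of the myogenic regulators. Between 1 and 9 of the 38 list counts moved by more than 1.5 times in a setting. Sarcomere genes fell from 6 to 3 of 46 with a fold of at least 3 or equal numbers of peaks, and potassium channel genes rose to 41 with 50% coverage. Shares of all coding genes are not given for these settings, so the direction of the list counts against them is not shown. No paired analysis was possible because each list pools both replicates of its group, and leaving out a replicate was not possible for the same reason. Without read counts, a peak called in a single list cannot be told apart from a signal just under the threshold in the other.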
